A study of Homo sapiens with 4 samples.

Results

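The APOBEC3 and ADAR genes encode enzymes that remove amino groups from bases in nucleic acids. The 9 genes described here, of 58812 listed, were taken by symbol: the 7 APOBEC3 genes, APOBEC3A, APOBEC3B, APOBEC3C, APOBEC3D, APOBEC3F, APOBEC3G and APOBEC3H, with ADAR and ADARB1. They were measured by RNA sequencing in A549 cells, an established lung carcinoma epithelial line. Wild-type A549 cells received 1 µg of a plasmid for Myc-DDK-tagged SAMD9 (2 libraries) or of pCMV6-Entry, the empty vector control (2 libraries), and RNA was taken after 24 hr. The vector carries a cytomegalovirus promoter, so the SAMD9 level is that of forced expression, and both groups received plasmid DNA. RNA was pooled over all cells of a culture, so a change in each cell and a change in the share of cells with the transcript cannot be told apart.

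APOBEC3 enzymes convert cytosine to uracil in single-stranded DNA. They are known for mutating the reverse transcripts of retroviruses and for limiting retroelements, and most are best known from leukocytes. ADAR enzymes convert adenosine to inosine in double-stranded RNA. ADAR editing marks cellular double-stranded RNA as self, and without it the RNA sensor MDA5 and the kinase PKR respond to the cell's own transcripts. Many of these genes are interferon-inducible, and SAMD9 is itself an interferon-inducible antiviral protein.

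Library totals ranged from 30750029 to 39670083 counts with SAMD9 and from 29301854 to 31434339 with empty vector. SAMD9 had 220123 and 184350 counts in the SAMD9 libraries, against 444 and 400 with empty vector, as the labels say; plasmid and cellular SAMD9 reads are not separated. The 9 markers of lung epithelium and A549 cells summed to between 10362 and 10627 CPM with SAMD9 and between 8689 and 9680 CPM with empty vector. Most of that came from keratin genes and AKR1B10, whereas KRT19 had 8 and 5 counts with SAMD9 and 10 and 8 with empty vector. EPCAM was also low, at a mean of 5.57 CPM with SAMD9 and 6.38 CPM with empty vector. KRT8 averaged 4593 ± 122 CPM (counts scaled to library size with TMM factors; SD, n = 2) with SAMD9 and 3474 ± 241 CPM (SD, n = 2) with empty vector. Of the 8 epithelial markers tested in edgeR, 2 were called higher with SAMD9, KRT8 (log2 fold change 0.40, SE 0.05, adjusted p = 9.7e-07) and CDH1, the E-cadherin gene (0.89, SE 0.08, adjusted p = 5.0e-09). Leukocyte markers, which matter because APOBEC3 genes are typical of leukocytes, were low. The 14 leukocyte markers summed to between 9.43 and 9.63 CPM with SAMD9 and between 8.25 and 8.31 CPM with empty vector, and CD3D, CD2 and MS4A1 were at 0 counts in all 4 libraries. PTPRC, the pan-leukocyte gene, had 0 and 3 counts with SAMD9 and 0 and 0 with empty vector. Of the 14 markers 4 had enough counts to test in edgeR, ITGAM, CD14, LCP1 and CD8A, and 0 were called. ITGAM, CD14 and LCP1 averaged 4.03, 2.38 and 2.27 CPM with SAMD9 and 3.20, 2.41 and 1.71 CPM with empty vector. With SAMD9 each of them lay above APOBEC3A, at 1.97 CPM, whereas CD8A, at 0.475 CPM, lay below it. The 6 fibroblast markers summed to between 6.33 and 6.39 CPM with SAMD9 and between 1.79 and 2.84 CPM with empty vector, with DCN at 0 counts in all 4 libraries. Of the 2 that could be tested, COL1A1, a collagen gene, was called higher, with 194 and 160 counts with SAMD9 and 45 and 70 with empty vector (log2 fold change 1.60, SE 0.25, edgeR adjusted p = 3.6e-05). The 4 endothelial markers summed to between 0.510 and 0.734 CPM with SAMD9 and between 0.508 and 0.639 CPM with empty vector, and 0 had enough counts to test. The part of these markers in the deaminase results was not tested.

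Of the 9 genes, 6 rose with SAMD9: ADAR, APOBEC3A, APOBEC3B, APOBEC3C, APOBEC3F and APOBEC3G. These rises ranged from a 1.49-fold rise of APOBEC3C to a 10.5-fold rise of APOBEC3F among the well-counted genes. APOBEC3D and ADARB1 did not pass the test, and APOBEC3H was barely detected. A gene was called at an adjusted p below 0.05 in edgeR's quasi-likelihood test, with Benjamini-Hochberg adjustment over 19814 tested genes. Of all tested genes, 15.3% were called higher, 12.2% lower and 27.5% in either direction. Of the 9 genes, 8 had enough counts to test, and 6 of these were called higher and 0 lower. APOBEC3A and APOBEC3G passed the filter on low counts only through the SAMD9 libraries, so their calls follow in part from the filter. Of the 6 genes that passed it in both groups, 4 were called. The SAMD9 libraries lay above both empty vector libraries for 7 of the tested genes, as they did for 31.1% of all tested genes.

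**Figure D1:**
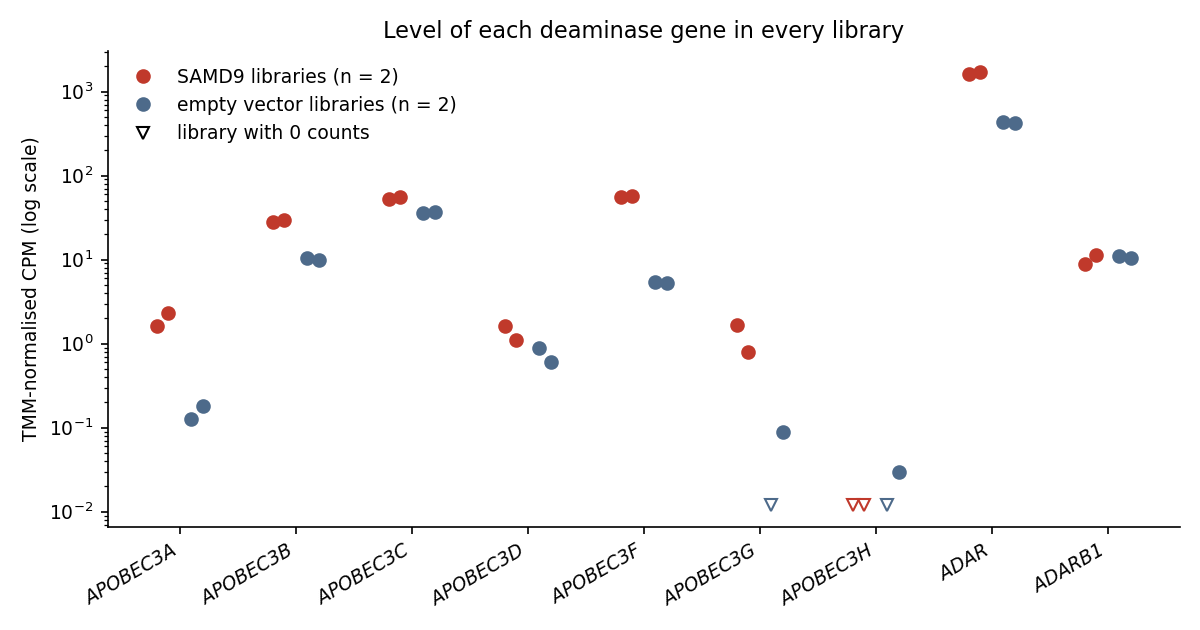
TMM-normalised CPM of each of the 9 deaminase genes in every library (log axis), with SAMD9 libraries in red, left of empty vector libraries in blue. Open triangles mark libraries with 0 counts, drawn at the foot of the axis. ADAR stands highest in both groups, at 1633 and 1693 CPM with SAMD9 against 437 and 428 CPM with empty vector, and ADARB1 is the only tested gene whose groups overlap.

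The APOBEC3 genes lie side by side on the plus strand of chromosome 22, between bases 38952741 and 39104067 of GRCh38 in the deposited exon coordinates, a span of 151 kb. In that order they differed widely in their response. APOBEC3F (ENSG00000128394, 39040604 to 39053910), a double-domain enzyme that restricts HIV lacking Vif, had 2052 and 1654 counts with SAMD9 and 168 and 178 with empty vector. These correspond to 55.0 and 57.8 CPM with SAMD9 against 5.37 and 5.32 CPM with empty vector. Even the nearest SAMD9 and empty vector libraries were 10.2-fold apart. The log2 fold change was 3.40 (SE 0.11, 95% interval 3.17 to 3.63, edgeR adjusted p = 6.3e-17), with 1.5% of all tested genes rising more.

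APOBEC3B (ENSG00000179750, 38982347 to 38992804) encodes a mainly nuclear deaminase linked to mutations in tumours. It had 1053 and 850 counts with SAMD9 and 331 and 328 with empty vector. Its level was 28.2 and 29.7 CPM in the SAMD9 libraries, against 10.6 and 9.80 CPM in the empty vector libraries. The groups were well apart, and the log2 fold change was 1.51 (SE 0.12, 95% interval 1.26 to 1.75, edgeR adjusted p = 5.9e-10), or 2.84-fold. In the deposited coordinates 348 exonic bases of APOBEC3B, or 18.4% of its length, are also assigned to APOBEC3A.

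APOBEC3C (ENSG00000244509, 39014083 to 39020352), a single-domain enzyme, was the most abundant of the family without SAMD9. It had 1953 and 1610 counts with SAMD9, against 1133 and 1224 with empty vector. That was 52.4 and 56.2 CPM with SAMD9 and 36.2 and 36.6 CPM with empty vector. Its rise was the smallest of those called, with a log2 fold change of 0.58 (SE 0.08, 95% interval 0.40 to 0.75, edgeR adjusted p = 1.2e-05). Total-count scaling, which lowered the median of all genes by 0.19 on the log2 scale, gave 0.39 for it, and it stayed called.

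APOBEC3A (ENSG00000128383, 38952741 to 38992778), a potent single-domain DNA deaminase known from monocytes and from interferon-treated cells, stayed at a low level. It had 61 and 66 counts with SAMD9 and 4 and 6 with empty vector. At 1.64 and 2.31 CPM with SAMD9, against 0.128 and 0.179 CPM with empty vector, the groups did not overlap. The log2 fold change was 3.64 (SE 0.55, 95% interval 2.49 to 4.79, edgeR adjusted p = 2.1e-05). The gene model in the files runs on into the last exon of APOBEC3B. Of the 31-base words in APOBEC3A transcripts of GENCODE 29, 26.2% also occur in APOBEC3B, so the split of counts between these genes is uncertain. Transcripts of any other gene hold 47.7% of the APOBEC3B words and 31.9% of the APOBEC3F words. The counts, folds and shares of APOBEC3B and APOBEC3F are therefore open to the same uncertainty.

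APOBEC3G (ENSG00000239713, 39040961 to 39087743), the double-domain enzyme first described as the target of HIV Vif, was near the limit of detection without SAMD9. It had 62 and 23 counts with SAMD9 and 0 and 3 with empty vector. Both SAMD9 libraries, at 1.66 and 0.803 CPM, exceeded those with empty vector, at 0 and 0.0896 CPM, but the SAMD9 libraries also differed widely from each other. The ratio of summed counts, scaled by library size, was 27.8 with an exact 95% counting interval from 9.21 to 137.6. That interval pools the libraries of a group, leaves out the spread between them and may be too narrow. The fitted log2 fold change was 4.64 (SE 0.86, edgeR adjusted p = 0.00024). It was 3.74 without empty vector replicate 1, 4.02 without SAMD9 replicate 1 (adjusted p = 0.022) and 8.34 without empty vector replicate 2, which leaves only 0 counts to compare with. Among its 31-base words, 7.73% also occur in APOBEC3F, whose exons overlap the deposited APOBEC3G model by 17 bases.

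APOBEC3D (ENSG00000243811, 39014363 to 39033276), another double-domain member, had 60 and 32 counts with SAMD9 and 28 and 20 with empty vector. Its level was 1.61 and 1.12 CPM with SAMD9, against 0.895 and 0.598 CPM with empty vector. Although the groups did not overlap, its value of 0.88 on the log2 scale (SE 0.46, adjusted p = 0.18 in edgeR) did not pass the test. The 95% interval, from -0.08 to 1.83, includes no change and a rise of 3.56-fold. The deposited model begins inside APOBEC3C. A readthrough gene that GENCODE 29 lists over both, AL022318.4, holds 82.1% of the APOBEC3D words and has no entry of its own in the files. APOBEC3F holds 13.6% of the APOBEC3D words and APOBEC3B 7.58%, and 89.9% occur in some other gene. The counts of APOBEC3D are therefore uncertain too. APOBEC3H (ENSG00000100298, 39097224 to 39104067), a single-domain member, had 0 and 0 counts with SAMD9 and 0 and 1 with empty vector. A level of up to 0.0455 CPM with SAMD9 and 0.0463 CPM with empty vector, the worth of 3 counts over a group, would not have been seen.

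**Figure D2:**
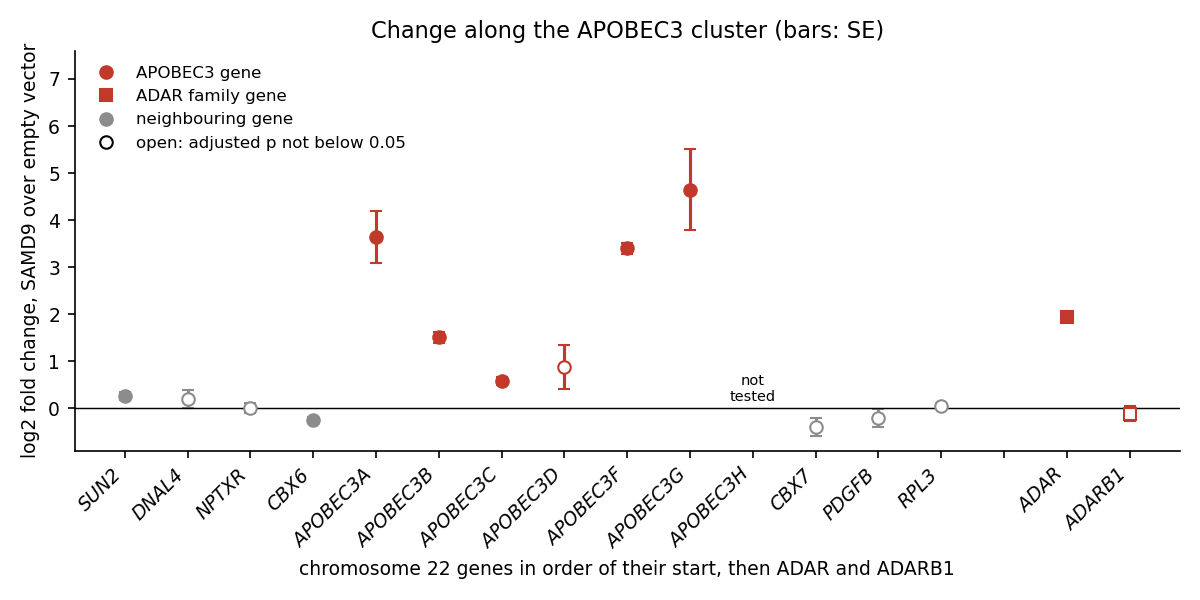
Log2 fold change (SAMD9 over empty vector, bars SE) of the 6 tested APOBEC3 genes and 7 neighbouring genes in chromosome order, followed by ADAR and ADARB1. APOBEC3H is marked as not tested. Open symbols mark genes with adjusted p not below 0.05. The values of the tested APOBEC3 genes run from 0.58 to 4.64, whereas the neighbours lie between -0.40 and 0.26.

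Genes flanking the cluster gave smaller values. CBX6, the nearest of the neighbours listed upstream and a Polycomb protein gene, fell by 0.25 on the log2 scale (SE 0.06, edgeR adjusted p = 0.0024), and CBX7, downstream and named for its place beside the cluster after its value was seen, had -0.40 (SE 0.20, adjusted p = 0.16). Of the 16 neighbours listed around the APOBEC3 cluster, ADAR and ADARB1, 2 were called higher and 1 lower, and their median was 0.04, against -0.01 for all tested genes. Over all tested genes, 15.3% were called higher and 12.2% lower, and no test set the neighbours apart from those shares. Those called higher were CHRNB2, a nicotinic receptor subunit gene beside ADAR (1.18, SE 0.24, adjusted p = 0.00063), and SUN2, a nuclear envelope gene (0.26, SE 0.08, adjusted p = 0.012). Under total-count scaling 1 neighbour was higher and 6 were lower, with a median of -0.15, and leaving out either SAMD9 library left 1 higher.

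Compared per kilobase of the listed gene length, the family's makeup differed between the groups. Summed over the 7 genes, the APOBEC3 level was 52.1 and 55.0 CPM per kilobase with SAMD9, against 20.5 and 20.1 CPM per kilobase with empty vector, a ratio of 2.64. APOBEC3F held 32.6% and 32.4% of that sum in the SAMD9 libraries and 8.08% and 8.15% in the empty vector libraries. APOBEC3C held 35.7% and 36.3% with SAMD9, against 62.7% and 64.4% with empty vector. The share of APOBEC3B was 28.6% and 28.5% with SAMD9 and 27.2% and 25.7% with empty vector, and its 2.84-fold rise was near the 2.64 of the family sum. APOBEC3A, APOBEC3D and APOBEC3G each held less than 2% of the sum in every library at the listed gene lengths. With the longest coding transcript as the length, APOBEC3A held 1.94% and 2.60% with SAMD9 and 0.411% and 0.586% with empty vector, and APOBEC3G held 1.59% and 0.731% with SAMD9 and 0% and 0.236% with empty vector. These shares are given without a test, since 2 libraries against 2 cannot give an exact two-sided permutation p below 0.333.

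**Figure D3:**
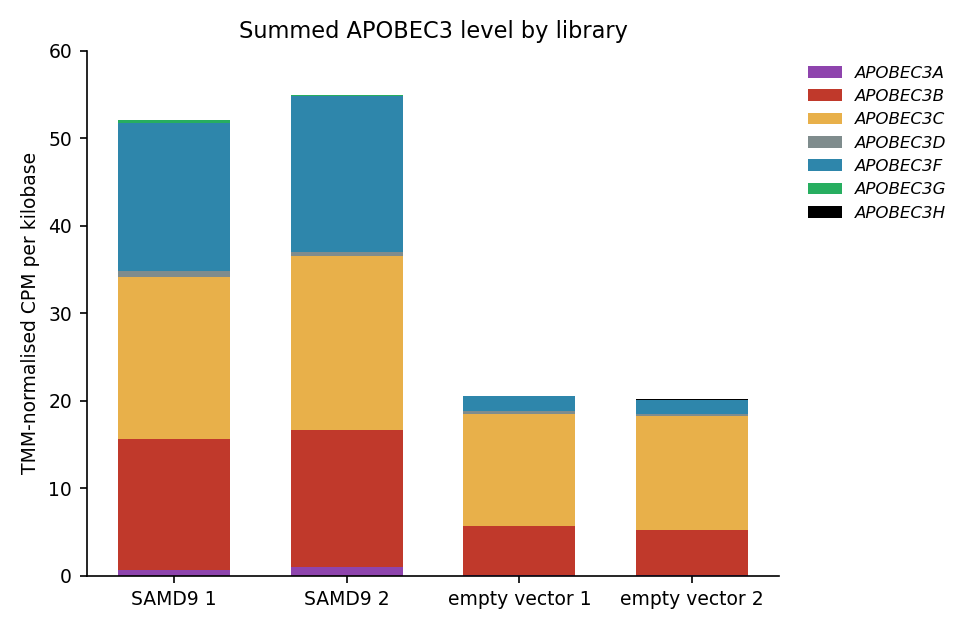
TMM-normalised CPM per kilobase of the 7 APOBEC3 genes, stacked, in each SAMD9 and empty vector library. Total height is 52.1 and 55.0 with SAMD9 against 20.5 and 20.1 with empty vector, and the APOBEC3F layer makes up 32.6% and 32.4% of it against 8.08% and 8.15%.

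With SAMD9 the order of levels per kilobase was ADAR at 199 ± 5.03 CPM per kilobase (SD, n = 2), APOBEC3C at 19.3 ± 0.970, APOBEC3F at 17.4 ± 0.599 and APOBEC3B at 15.3 ± 0.542. ADARB1 followed at 1.01 ± 0.179, then APOBEC3A at 0.836 ± 0.201, APOBEC3D at 0.536 ± 0.136 and APOBEC3G at 0.226 ± 0.111. Of these neighbours in the order, only ADARB1 and APOBEC3A overlapped between libraries. With empty vector the order was ADAR at 51.8 ± 0.716 CPM per kilobase, APOBEC3C at 12.9 ± 0.0906, APOBEC3B at 5.37 ± 0.290, APOBEC3F at 1.65 ± 0.0111 and ADARB1 at 1.09 ± 0.0430. APOBEC3D, at 0.293 ± 0.0826, and APOBEC3A, at 0.0651 ± 0.0154, came next, and APOBEC3H and APOBEC3G overlapped at the bottom. The longest coding transcript as the length placed APOBEC3F above APOBEC3C and APOBEC3G above APOBEC3D with SAMD9, and APOBEC3G above APOBEC3H with empty vector, so the order within these pairs rests on the length used.

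ADAR (ENSG00000160710, chromosome 1, 154582062 to 154627999, minus strand) is the main A-to-I editing enzyme of most tissues. It makes a longer, interferon-inducible and partly cytoplasmic isoform and a shorter, constitutive nuclear one. The gene had 60909 and 48462 counts with SAMD9, against 13669 and 14338 with empty vector. Its level was 1633 and 1693 CPM in the SAMD9 libraries and 437 and 428 CPM in the empty vector libraries. No other member was as abundant, and the groups were 3.74-fold apart at their nearest libraries. The log2 fold change was 1.94 (SE 0.05, 95% interval 1.83 to 2.05, edgeR adjusted p = 1.8e-18), or 3.84-fold. Per kilobase, 0.767% of tested genes had a higher level than ADAR with SAMD9 and 3.47% with empty vector. Gene counts do not separate the isoforms, so which of them rose was not measured.

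ADARB1 (ENSG00000197381, chromosome 21, 45073853 to 45226560, plus strand) encodes the second catalytically active enzyme, known for recoding neuronal receptor transcripts. It had 330 and 326 counts with SAMD9 and 350 and 354 with empty vector. Those are 8.85 and 11.4 CPM with SAMD9, against 11.2 and 10.6 CPM with empty vector, so that the empty vector values fell between the SAMD9 values. On the log2 scale its value of -0.11 (SE 0.15, adjusted p = 0.65 in edgeR) did not pass the test, and it was 0.069 without SAMD9 replicate 1. The 95% interval, from -0.43 to 0.20, leaves out a change as large as that of ADAR. Per kilobase, ADAR exceeded ADARB1 by a factor of 221 and 178 with SAMD9 and of 46.8 and 48.5 with empty vector.

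The ADAR and ADARB1 promoter windows are shown because ADAR rose and ADARB1 did not pass the test. RefSeq windows of GRCh38.p14, from 250 bases before to 50 after a start, were matched for 3 of the genes, ADAR, ADARB1 and APOBEC3H. Below are both main ADAR starts, the distal chr1:154627948-154628247 and the internal chr1:154608748-154609047, on the minus strand, and the first ADARB1 start, chr21:45074328-45074627, on the plus strand. Each reads 5′ to 3′, and capitals mark every CG dinucleotide.
ADAR distal start: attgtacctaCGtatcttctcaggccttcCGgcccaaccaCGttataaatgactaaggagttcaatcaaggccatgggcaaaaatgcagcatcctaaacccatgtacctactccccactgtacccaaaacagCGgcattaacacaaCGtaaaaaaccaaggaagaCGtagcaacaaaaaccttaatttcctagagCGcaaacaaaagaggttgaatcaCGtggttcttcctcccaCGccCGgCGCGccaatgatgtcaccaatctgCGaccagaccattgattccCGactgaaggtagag
ADAR internal start: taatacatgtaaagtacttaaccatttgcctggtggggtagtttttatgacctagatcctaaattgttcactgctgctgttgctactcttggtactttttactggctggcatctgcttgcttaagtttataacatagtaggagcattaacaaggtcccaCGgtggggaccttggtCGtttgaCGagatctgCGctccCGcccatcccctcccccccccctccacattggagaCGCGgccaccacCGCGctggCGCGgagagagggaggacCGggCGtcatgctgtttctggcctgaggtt
ADARB1 first start: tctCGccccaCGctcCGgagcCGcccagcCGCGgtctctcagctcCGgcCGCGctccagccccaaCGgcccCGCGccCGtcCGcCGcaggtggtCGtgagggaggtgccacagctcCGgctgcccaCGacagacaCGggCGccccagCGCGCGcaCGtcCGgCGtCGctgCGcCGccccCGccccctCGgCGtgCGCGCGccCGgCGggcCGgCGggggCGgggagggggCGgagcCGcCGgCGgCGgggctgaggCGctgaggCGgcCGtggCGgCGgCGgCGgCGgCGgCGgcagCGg

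The sequences differ in base composition. The distal and internal ADAR windows hold 14 and 13 CG dinucleotides and are 47.7% and 53.0% G or C, below the median of 58.7% over all tabulated promoters. The ADARB1 window shown holds 56 CG dinucleotides and is 84.3% G or C, and 0.325% of the 35116 tabulated windows are richer. ADARB1 windows not shown are 84.7%, 81.7% and 58.0% G or C, with 57, 52 and 14 CG dinucleotides. The last of these, chr21:45152280-45152579, holds as many CG dinucleotides as the distal ADAR window, so the difference depends on the start chosen. Both strands of the 8 windows of these genes were searched for the core of the interferon-stimulated response element (GAAA, any 2 bases, GAAA), for the same element with GG before and CT after, written GGAAA, any 2 bases, GAAACT, which contains the core, and for the STAT-binding GAS pattern TTCNNNGAA. None was found. Of all tabulated windows, 3.57% hold the core, 0.134% the extended form and 7.66% the GAS pattern, so the absence describes only the letters of these windows.

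Pattern likeness was measured as the Euclidean distance between log2 CPM values centred on each gene's mean over the 4 libraries. The genes outside the family most like ADAR were LRRC3 on chromosome 21 (distance 0.044), GATA3 (0.070), a transcription factor gene, and IL18BP (0.079), which encodes an interleukin-18 inhibitor. Their log2 fold changes were 1.93 (SE 0.16), 1.90 (SE 0.13) and 2.00 (SE 0.11), against 1.94 (SE 0.05) for ADAR. Because the distance picks genes by their values in the same 4 libraries, close fold changes follow from the selection. LRRC3, GATA3 and IL18BP are therefore listed as a description only. These 3 genes were far less abundant than ADAR, averaging 13.5, 24.8 and 37.7 CPM with SAMD9 and 3.56, 6.62 and 9.45 CPM with empty vector. For APOBEC3C, which had the highest CPM of its family as a mean over all 4 libraries though APOBEC3F was higher with SAMD9, the nearest were the pseudogene RPL24P2 (distance 0.031), NFATC3 (0.032), a transcription factor gene, and CKS1B (0.036), a cell-cycle kinase subunit gene. RPL24P2 averaged only 0.901 CPM with SAMD9 and 0.586 CPM with empty vector.

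Genes for the sensors and effectors of double-stranded RNA, whose activation ADAR editing limits, mostly rose beside ADAR. Of 12 tested, 11 were called higher and 0 lower, beside 15.3% and 12.2% of all tested genes. Their median log2 fold change of 5.56 was the same with ZBP1, at 0 counts with empty vector, set at its bound. The lowest p-values were those of RIGI, the RNA sensor gene, at 5.81 (SE 0.07), OASL at 7.77 (SE 0.10) and OAS2, an oligoadenylate synthetase gene, at 8.49 (SE 0.11) on the log2 scale. EIF2AK2, which encodes PKR and was named after its value was seen, rose by 2.31 (SE 0.06), beside 1.94 for ADAR, whereas MAVS, the adaptor gene and the 1 tested gene of the list not called, had -0.11 (SE 0.06, adjusted p = 0.20). Of the 12, 1 sensor or effector gene was called lower with total counts as the scale, and 1 when empty vector replicate 1 was left out. The interferon transcription factor genes rose in 5 of 6 cases (median 3.22), led by IRF7 at 4.95 (SE 0.08), IRF1 at 4.48 (SE 0.07) and STAT2 at 4.12 (SE 0.07).

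Other genes known to restrict retroviruses or retroelements rose in 9 of 14 cases and 1 fell (median 2.56), beside 15.3% higher and 12.2% lower over all tested genes. ZC3HAV1, the zinc finger antiviral protein gene, rose by 4.01 (SE 0.06), SAMHD1, the dNTP hydrolase gene, by 3.89 (SE 0.08) and MX2, which blocks HIV nuclear import, by 7.27 (SE 0.16) on the log2 scale. The fall was that of SERINC5 (-0.54, SE 0.09), named after its value was seen. Under total-count scaling 2 of these genes were lower.

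Deaminases outside the APOBEC3 and ADAR genes had 1 call among the tested genes. Of all tested genes, 15.3% were called higher and 12.2% lower, and no test set these few deaminases apart from those shares. Of 19 such genes 10 were tested, with 0 called higher and 1 lower, and 1 was higher without empty vector replicate 2. The lower one, AMPD2, an AMP deaminase gene, fell by 0.33 (SE 0.09, edgeR adjusted p = 0.0064), and leaving out replicate 2 of either group left 0 lower. CDADC1 had 0.61 (SE 0.25, adjusted p = 0.074) and ADAT3, a tRNA deaminase subunit gene, 0.26 (SE 0.16, adjusted p = 0.27). APOBEC1, APOBEC2, APOBEC4 and ADARB2 were among those with too few counts to test.

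Genes that process the enzymes' products or modulate ADAR had small fold changes. The shares over all tested genes were 15.3% called higher and 12.2% lower, and no test set either of these lists apart from them. Of 12 genes for uracil repair and lesion bypass, 3 were called higher and 0 lower (median 0.04): UNG, the main uracil glycosylase gene, at 0.22 (SE 0.07, adjusted p = 0.022), APEX1 at 0.19 (SE 0.07, adjusted p = 0.037) and REV3L at 0.23 (SE 0.09, adjusted p = 0.046). Under total-count scaling 0 were higher and 4 lower, with a median of -0.15, and 0 were higher without SAMD9 replicate 2, against 1 without SAMD9 replicate 1. Of 17 genes for double-stranded RNA binding proteins and regulators of editing, 2 were higher and 3 lower (median 0.01). STAU1 rose by 0.44 (SE 0.06) and DICER1 by 0.29 (SE 0.07), whereas TNPO1, an import receptor gene for the shorter ADAR isoform, fell by 0.31 (SE 0.06). Under total-count scaling 1 was higher and 10 lower, with a median of -0.18.

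Among 17 genes reported to regulate APOBEC3B, 6 were called higher and 1 lower (median 0.11, or -0.079 under total-count scaling, where 5 were lower). Over all tested genes the shares were 15.3% higher and 12.2% lower, and no test set this list apart from them. The NF-kB subunit genes led: NFKB2 rose by 1.21 (SE 0.06), RELA by 1.13 (SE 0.06) and RELB by 1.05 (SE 0.07) on the log2 scale, beside 1.51 (SE 0.12) for APOBEC3B. MYBL2, which encodes the cell-cycle factor B-MYB, had -0.02 (SE 0.06, edgeR adjusted p = 0.88), FOXM1 0.01 (SE 0.06) and E2F4 0.10 (SE 0.07, edgeR adjusted p = 0.29). LIN54, the one lower gene, had -0.39 (SE 0.10), and 0 were lower without SAMD9 replicate 2. Also called higher were LIN52 at 0.92 (SE 0.13, edgeR adjusted p = 9.2e-06), NFKB1 at 0.79 (SE 0.08) and CDKN1A at 0.19 (SE 0.06). The part of any of these genes in the rise of APOBEC3B was not tested. Genes beyond the first 3 of that list were named after their values were seen.

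**Figure D4:**
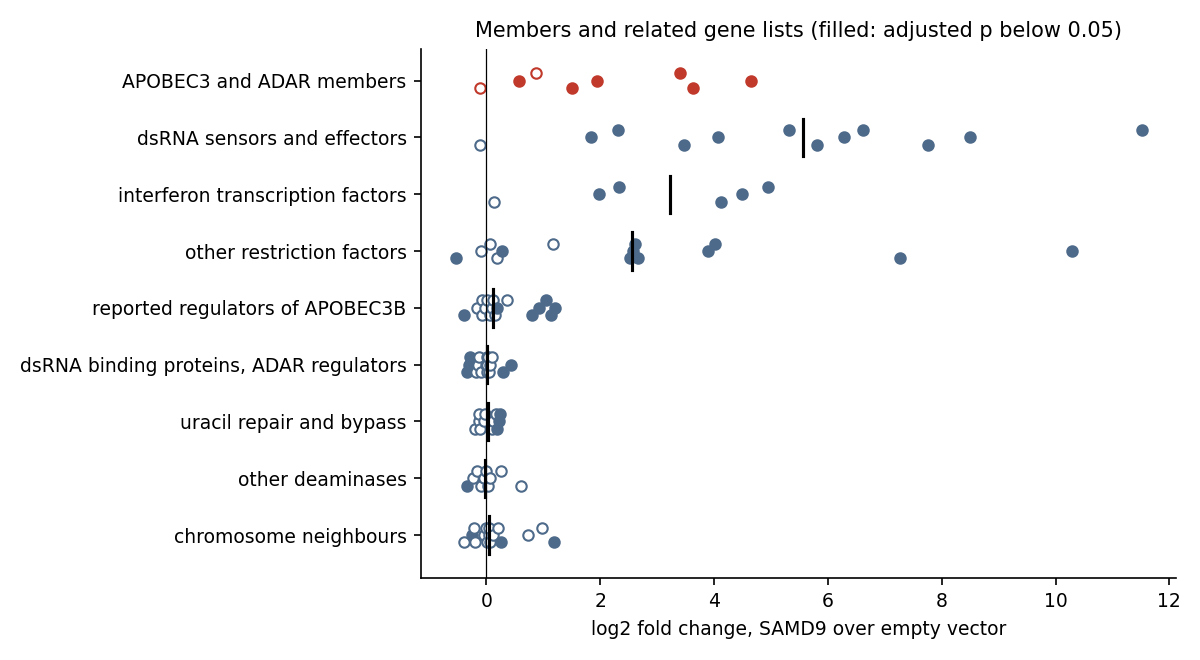
Log2 fold change (SAMD9 over empty vector) of the 8 tested deaminase genes, in red, and of the tested genes of 8 related lists, in blue, with filled symbols for adjusted p below 0.05 and a black line at each list's median. Medians are 5.56, 3.22 and 2.56 for the sensors, the interferon transcription factors and the other restriction factors, and between -0.03 and 0.11 for the other 5; ZBP1 and BST2, at 0 and 2 counts over the empty vector group, are drawn at fitted values that are not bounds.

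**Figure D5:**
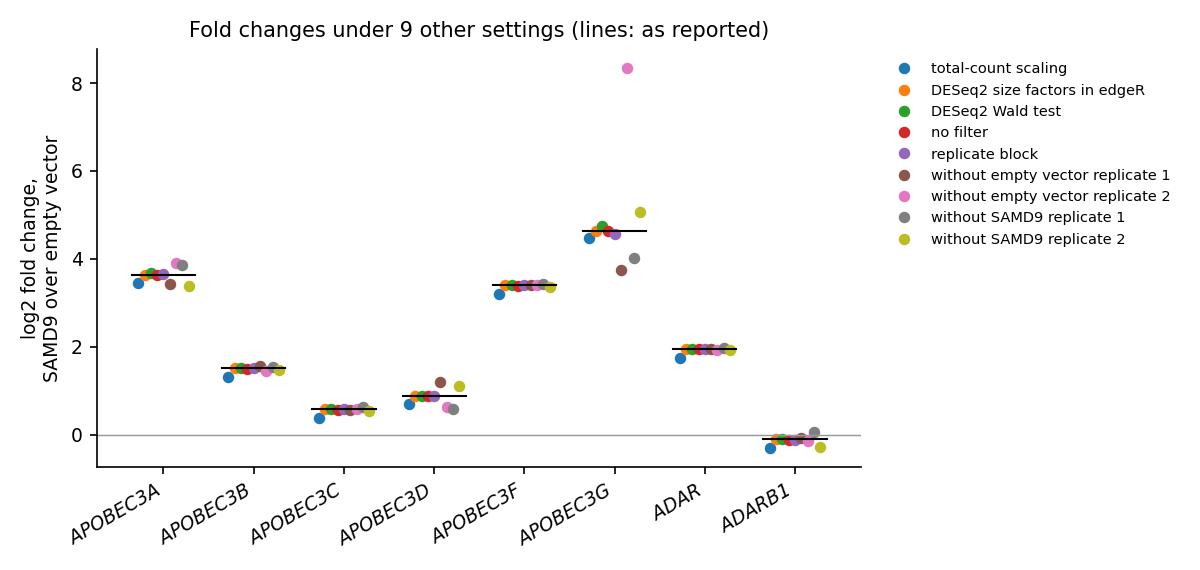
Log2 fold change (SAMD9 over empty vector) of the 8 tested genes under 9 other settings (coloured points), with the reported value as a black line. ADAR ranges from 1.75 to 1.97 and APOBEC3F from 3.21 to 3.44, whereas APOBEC3G ranges from 3.74 to 8.34 and ADARB1 from -0.30 to 0.07.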

How the data were processed

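RNA of 4 A549 libraries was extracted with Trizol and depleted of ribosomal RNA with KAPA RiboErase, per the labels' protocols. Each deposited file held raw counts per gene beside the authors' CPM and RPKM columns. The deposited CPM matched counts over the library total, and the deposited RPKM matched that CPM over gene length in kilobases, so both served as checks only. The submitters' processing notes name bcl2fastq, STAR 2.5.1a, Subread, featureCounts 1.4.6-p5 and GRCh38. How overlapping genes or strands were counted, and with which annotation, is not given in the sources used here. Among counts from 1 to 20, 72.9% were even, against 49.7% above 1000. Intervals on low counts cover counting error only and take each count as an independent event. With so many even values that may not hold, and the intervals may be too narrow.

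Symbols came from a gene name table (54836 of 58812 IDs) and otherwise from GENCODE 29, and 17 of 18 genes of the double-stranded RNA binding list were matched. Genes kept by filterByExpr (minimum count 10, total 15) numbered 19814. The test was edgeR 4.0.16 (R 4.3.3) with TMM, glmQLFit and glmQLFTest, no covariate and Benjamini-Hochberg adjustment over these genes, checked on simulated data. Each SE was derived from the estimate and its F value, and 95% intervals from the matching t distribution. CPM in the text is TMM-normalised. Replicates differed by more than sampling noise (chi-square per degree of freedom 5.00 with SAMD9 and 9.35 with empty vector). Nothing says that they were separate cultures, so the p-values reflect library-to-library spread that may be technical. One count was worth between 0.0252 and 0.0341 CPM.

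The members and lists were chosen with earlier results of these data known. All 9 members are named, and of each list the 3 genes with the lowest p. Other genes, such as MAVS, CBX7 and the cell type markers, were named after their values were seen. Alternatives were total-count scaling, DESeq2 size factors, DESeq2 1.42.0, no filter, the replicate number as a block, leaving out each library, and, chosen after seeing the data, another gene length.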

Additional observations from a re-analysis of the deposited data

How the results depend on the processing

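The 6 genes called higher stayed called in the same direction under all 9 settings tried, and APOBEC3D and ADARB1 were called in none. ADARB1 changed sign without SAMD9 replicate 1 (0.069; its values without one library ran from -0.29 to 0.069). Without one library, the fold change of ADAR ran from 1.92 to 1.97, APOBEC3F from 3.37 to 3.44 and APOBEC3G from 3.74 to 8.34. Total-count scaling gave 1974 higher and 5653 lower genes in place of 3038 and 2420, and medians of -0.15 for uracil repair, -0.18 for RNA binding proteins, -0.079 for APOBEC3B regulators and -0.15 for neighbours. It left 0 higher and 4 lower for uracil repair, 1 and 10 for RNA binding proteins, and 1 and 6 for neighbours, and made 2 of the other deaminases, 1 sensor, 5 APOBEC3B regulators and 2 restriction factors lower. Without one library, 2291 to 3123 genes were higher and 1466 to 2279 lower. In the same comparison, the RNA binding list had 1 to 5 lower genes, 1 to 2 higher, uracil repair 0 to 4 higher, the sensors 0 to 1 lower, other deaminases 0 to 1 higher and 0 to 1 lower, APOBEC3B regulators 0 to 1 lower, and neighbours 1 to 3 higher and 0 to 2 lower. Uracil repair had 1 higher gene in DESeq2's Wald test.

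With the replicate number as a block, 2914 genes were higher and 2330 lower, and ADAR had 1.94 and APOBEC3F 3.40. The numbers do not pair the samples by any label, and across genes the replicate differences of both groups correlated at 0.0042. With the longest coding transcript as length, SAMD9 shares were 2.27% for APOBEC3A, 26.9% for APOBEC3B, 32.96% for APOBEC3C, 35.8% for APOBEC3F and 1.16% for APOBEC3G, and empty vector shares were 0.499% for APOBEC3A, 61.9% for APOBEC3C, 9.51% for APOBEC3F and 0.118% for APOBEC3G. In the SAMD9 order, 5 of 9 genes kept their place. DESeq2's Wald test called 2456 genes higher and 1637 lower. Depth limits APOBEC3A, APOBEC3D, APOBEC3G and APOBEC3H, each under 70 counts in every library, and the cause of each shift above was not tested.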
